A study of Homo sapiens with 6 samples.

Results

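The short-arm chromosome ends were taken as the first 10 Mb of 16 human chromosomes (1 to 12, 16, 17, 18 and 20), divided into bins of 200 kb. This gave 800 bins, 50 per chromosome, of 15453 bins over the 24 chromosomes of hg38, and membership rested on position alone. Each bin was scored as called when a deposited H3K9me3 domain covered it. The libraries came from MCF10.DCIS.com, a human breast epithelial line carrying an activated H-RAS allele that is used to model ductal carcinoma in situ. Control monolayers carried the empty vector pSLIK-neo-EV, and RAB5A monolayers carried pSLIK-neo-RAB5A, both as stable inducible lines made by lentiviral infection and antibiotic selection. RAB5A is a GTPase of early endosomes whose raised expression sets jammed epithelial monolayers in motion, and the study asked whether chromatin changes with that motion. Chromatin of each condition was precipitated with the antibody ab176916 in one library and ab8898 in the other, giving 2 libraries per condition and 4 in all. The labels do not say whether these came from separate cultures, so the spread between the libraries of a condition holds the difference between antibodies and may be technical. How long RAB5A was induced before fixation is not given in the labels, and lists of domains cannot show how strongly it was expressed. Values for the 4 libraries are given below for the controls first and then for RAB5A, and within each condition for ab176916 and then ab8898.

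H3K9me3 is the trimethyl mark on lysine 9 of histone H3. It is laid down by SETDB1 and the SUV39H enzymes and bound by HP1 proteins, and it marks constitutive heterochromatin, where repeats and many lineage-specific genes are kept silent. The extreme tip of a human chromosome is a telomere, followed by subtelomeric duplications and then by ordinary sequence, in which gene-rich and gene-poor stretches alternate. The EDD caller used for these libraries reports broad domains spanning many bins, so a gene inside a domain was not thereby shown to carry the mark itself.

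Distances below are counted from the first base of the reference chromosome. Its sequence began at base 10001 on 11 of the 16 chromosomes and at base 60001 on the other 5, with undetermined bases before it, so the first bin of each end was not sequenced over its whole length.

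A start in a bin called in both libraries of one condition and in neither of the other was found for 5 protein-coding genes (ADARB2, ADCY2, CFAP90, FASTKD3 and MTRR), and the promoters of 4 of them are shown. These are the 250 bases upstream of the start in RefSeq (GRCh38.p14), written 5′ to 3′ on the strand of the gene, with capitals on each CG dinucleotide, the site of DNA methylation and the building block of CpG islands. ADARB2 encodes ADAR3, a brain protein of the adenosine deaminase family, and its promoter at chr10:1737526-1737775 (minus strand) held 17 CG. ADCY2, an adenylyl cyclase that makes cyclic AMP, had 40 CG at chr5:7395888-7396137 (plus strand). CFAP90, a protein of cilia, had 18 CG at chr5:7851134-7851383 (minus strand). FASTKD3, a mitochondrial RNA-binding protein, had 27 CG at chr5:7869032-7869281 (minus strand). MTRR encodes methionine synthase reductase. In the same window the median was 17 CG over the 15345 protein-coding genes with an entry and 21 CG over the 1116 of them that start in the short-arm ends. The interquartile ranges were 7 to 26 CG and 8.75 to 30 CG. ADCY2 lay above both ranges and FASTKD3 above the first alone, while ADARB2 and CFAP90 lay within both. These are values of single promoters and were not tested.
ADARB2: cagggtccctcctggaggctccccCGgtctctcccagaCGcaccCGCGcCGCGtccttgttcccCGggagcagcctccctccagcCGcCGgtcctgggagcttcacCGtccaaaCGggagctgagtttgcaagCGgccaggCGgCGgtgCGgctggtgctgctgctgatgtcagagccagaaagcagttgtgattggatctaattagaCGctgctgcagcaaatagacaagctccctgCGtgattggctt
ADCY2: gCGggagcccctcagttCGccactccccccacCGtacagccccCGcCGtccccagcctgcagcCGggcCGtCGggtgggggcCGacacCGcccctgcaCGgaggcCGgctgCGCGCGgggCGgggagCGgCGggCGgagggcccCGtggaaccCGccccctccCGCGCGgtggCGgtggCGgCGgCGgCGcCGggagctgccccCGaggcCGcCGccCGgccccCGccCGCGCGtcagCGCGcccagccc
CFAP90: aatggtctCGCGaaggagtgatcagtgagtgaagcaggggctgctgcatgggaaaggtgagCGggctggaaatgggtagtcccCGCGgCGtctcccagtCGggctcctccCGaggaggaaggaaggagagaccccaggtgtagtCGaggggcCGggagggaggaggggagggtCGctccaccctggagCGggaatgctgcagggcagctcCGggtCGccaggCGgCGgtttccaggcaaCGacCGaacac
FASTKD3: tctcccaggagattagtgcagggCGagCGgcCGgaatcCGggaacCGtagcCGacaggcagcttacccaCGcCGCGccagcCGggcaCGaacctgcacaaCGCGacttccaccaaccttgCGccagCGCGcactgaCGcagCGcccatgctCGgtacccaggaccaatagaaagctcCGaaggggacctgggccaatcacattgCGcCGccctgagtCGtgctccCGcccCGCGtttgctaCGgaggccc

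Domains covered over 21% of the short-arm ends in each of the 4 libraries, at nearly the same total in control and RAB5A cells. The called bins numbered 172, 171, 171 and 173, or 21.5%, 21.4%, 21.4% and 21.6% of the ends. Over all bins of the genome the corresponding shares were 9.86%, 9.78%, 9.79% and 10.6%. As lengths, the ends held 34.4, 34.2, 34.2 and 34.6 Mb of domains. The controls averaged 34.3 ± 0.141 Mb and the RAB5A libraries 34.4 ± 0.283 Mb (SD, n = 2 per condition), and the difference of 0.1 Mb was smaller than either spread (p = 1 in a two-sided exact permutation test, which cannot give less than 0.33 here). With ab176916 the RAB5A library held 0.2 Mb less than the control, a change of -0.2 Mb, and with ab8898 it held 0.4 Mb more. When the ends were limited to their first 5 Mb the difference was -1.7 Mb, and 3.1 Mb when domains scoring below the lower quartile of their list were left out, in both cases with the groups not overlapping and a p of 0.333 in the exact permutation test.

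The ends were called far more often than the rest of the same 16 chromosomes. The rest was called at 4.68%, 4.28%, 4.66% and 4.48%, so the ends exceeded it by 16.8, 17.1, 16.7 and 17.1 percentage points. The mean excess was 16.9 ± 0.207 points (SD, n = 4 libraries; exact two-sided sign-flip permutation test, p = 0.125, the smallest that 4 libraries allow). As a ratio this was 4.60, 4.99, 4.59 and 4.83. The last 10 Mb of the long arms of the same chromosomes were called at 16.3%, 16.6%, 16.6% and 17.3%, lower than the short-arm ends in all 4 libraries. Short-arm ends exceeded long-arm ends by 4.78 ± 0.359 points (SD, n = 4 libraries; exact sign-flip permutation test, p = 0.125). That excess is over the whole 10 Mb. Between 1 and 4 Mb from the end the long arms were called more in each library, as given below by distance. The sign-flip tests cover the spread between libraries of a single cell line and not the spread between chromosomes. The short-arm ends made up 5.56% of autosomal bins and held between 17% and 17.5% of the autosomal called length.

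**Figure D1:**
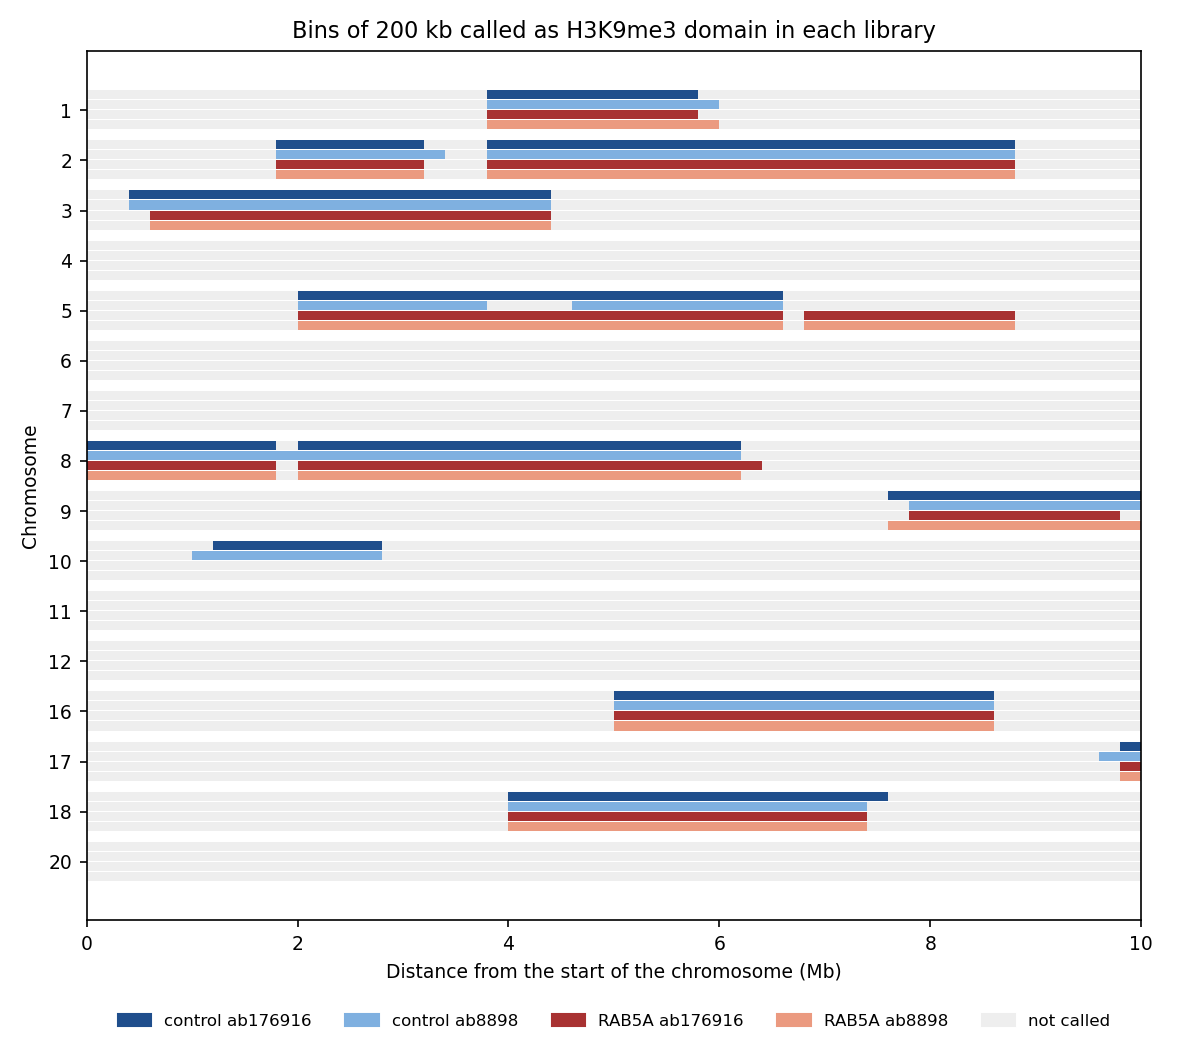
Called bins (coloured) of each 200 kb along the first 10 Mb of 16 chromosomes, with 4 strips per chromosome (from the top, the controls with ab176916 and ab8898, then RAB5A with ab176916 and ab8898) and grey where no domain was called. The strips coincide over most of each stretch, chromosome 10 is coloured in the control strips alone, and on chromosome 5 the block from 6.8 to 8.8 Mb is coloured in the RAB5A strips alone.

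Coverage was uneven between chromosomes. Of the 16 ends, 10 held a domain in at least 1 library, and the ends of chromosomes 4, 6, 7, 11, 12 and 20 held none. The end of chromosome 2 was called over 6.4, 6.6, 6.4 and 6.4 Mb. Chromosome 8 followed with 6, 6.2, 6.2 and 6 Mb. On chromosome 5 the called length was 4.6, 3.8, 6.6 and 6.6 Mb, where both RAB5A values lay above both control values. Chromosome 3 had 4, 4, 3.8 and 3.8 Mb, with the controls 1 bin above. These 4 chromosomes together held 61.0%, 60.2%, 67.3% and 65.9% of the called length of the ends.

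Chromosome 16 was the only end with calls whose length was equal in all 4 libraries, at 3.6 Mb. Chromosome 18 gave 3.6, 3.4, 3.4 and 3.4 Mb, chromosome 9 gave 2.4, 2.2, 2 and 2.4 Mb, and chromosome 1 gave 2, 2.2, 2 and 2.2 Mb. In none of these 3 did the conditions separate. The end of chromosome 10 held 1.6 and 1.8 Mb in the control libraries and 0 Mb in both RAB5A libraries. Chromosome 17 held 0.2, 0.4, 0.2 and 0.2 Mb, the tip-side edge of a domain that ran on to 12 Mb in all 4 libraries.

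Set against its own chromosome, the end had a higher mean share over the 4 libraries than the rest on 9 of the 16 chromosomes. All were among the 10 whose end held a call. Chromosome 10 was among the 9, at 8.5% in the end and 5.41% in the rest, though its end held 0 Mb in both RAB5A libraries. The mean share over the 4 libraries was 39% in the end and 0.186% in the rest of chromosome 3, and 61% and 1.04% on chromosome 8. On chromosome 16, which carried domains along much of its length, the shares were 36% and 19.9%. Among the 10 ends with a call, that of chromosome 17 was the exception, with 2.5% in the end and 5.93% in the rest. The end held 91.8% of the called length of chromosome 3, 81.3% on chromosome 8, 63.4% on chromosome 9, 56.5% on chromosome 5 and 55.6% on chromosome 18. The 6 ends without a call were not all on chromosomes poor in domains. The rest of chromosomes 7, 11, 12 and 20 was called at 10.8%, 10.2%, 7.05% and 10.4%, and that of chromosome 6 at 0.745%. On these chromosomes the end thus lay below the rest, while chromosome 4 had no call anywhere.

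**Figure D2:**
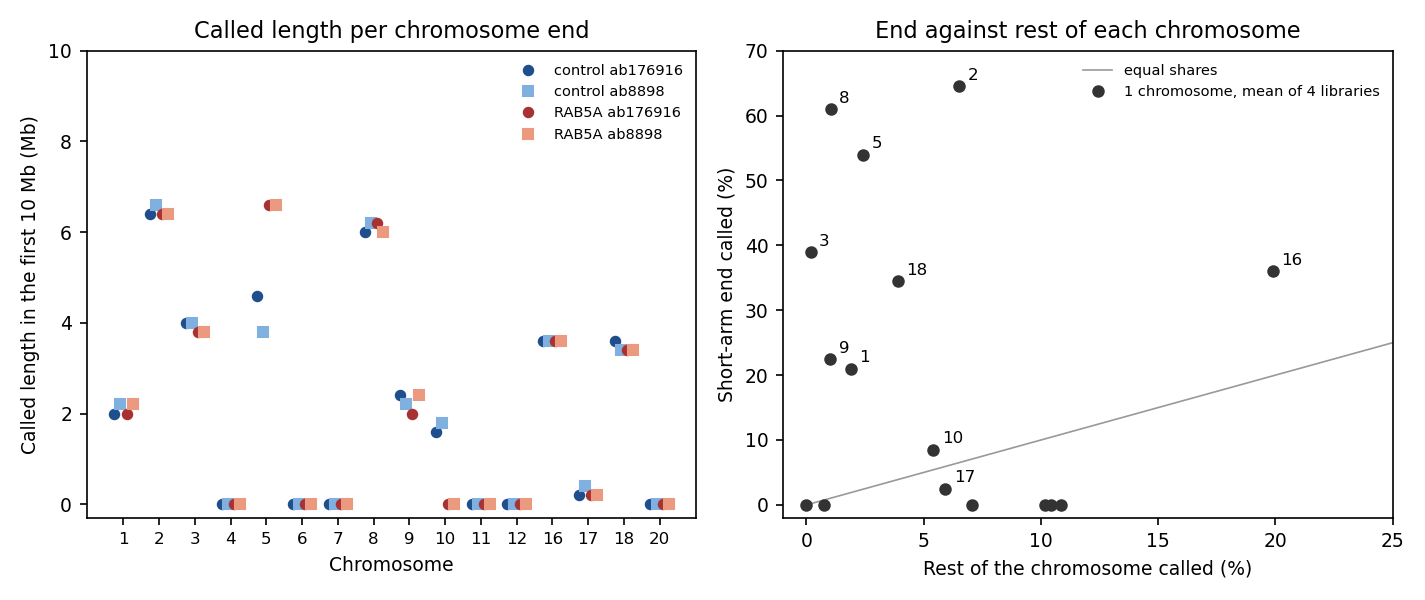
Left, called length (Mb) in the first 10 Mb of each chromosome, 1 point per library; right, mean share of the short-arm end (%) against mean share of the rest of the chromosome (%), 1 point per chromosome, with the line of equal shares. The controls and RAB5A libraries separate on chromosomes 3, 5 and 10, and 9 chromosomes lie above the line while chromosome 17 and the 6 without a call lie on or below it.

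Calls were sparse at the tip and densest some way in. In the first 1 Mb the share of bins called was 10%, 10%, 8.75% and 8.75%, and the calls there came from 2 chromosomes. Chromosome 8 was the only one called from its first bin, and chromosome 3 was entered at 0.4 or 0.6 Mb. Averaged over the libraries the share was 15.6% between 1 and 2 Mb, 27.5% between 2 and 3 Mb, 36.9% between 5 and 6 Mb and 7.5% between 9 and 10 Mb. On the long arms the densest window lay nearer to the end, at 40.3% between 2 and 3 Mb. Each long-arm window between 1 and 4 Mb was called more than the matching short-arm window in each library. Averaged over the libraries, 28.1% was called between 1 and 2 Mb of the long arms. From 4 Mb inwards each long-arm window was on average called less than the matching short-arm window, down to 6.25% between 9 and 10 Mb. Each window holds 80 bins of 16 chromosomes, and few chromosomes fill it, at most 6 on the short arms. At the 10 Mb limit itself, the last bin inside was called on chromosomes 9 and 17 in 2, 2, 1 and 2 cases, and the first bin outside on chromosome 17 in 1 case in each library.

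**Figure D3:**
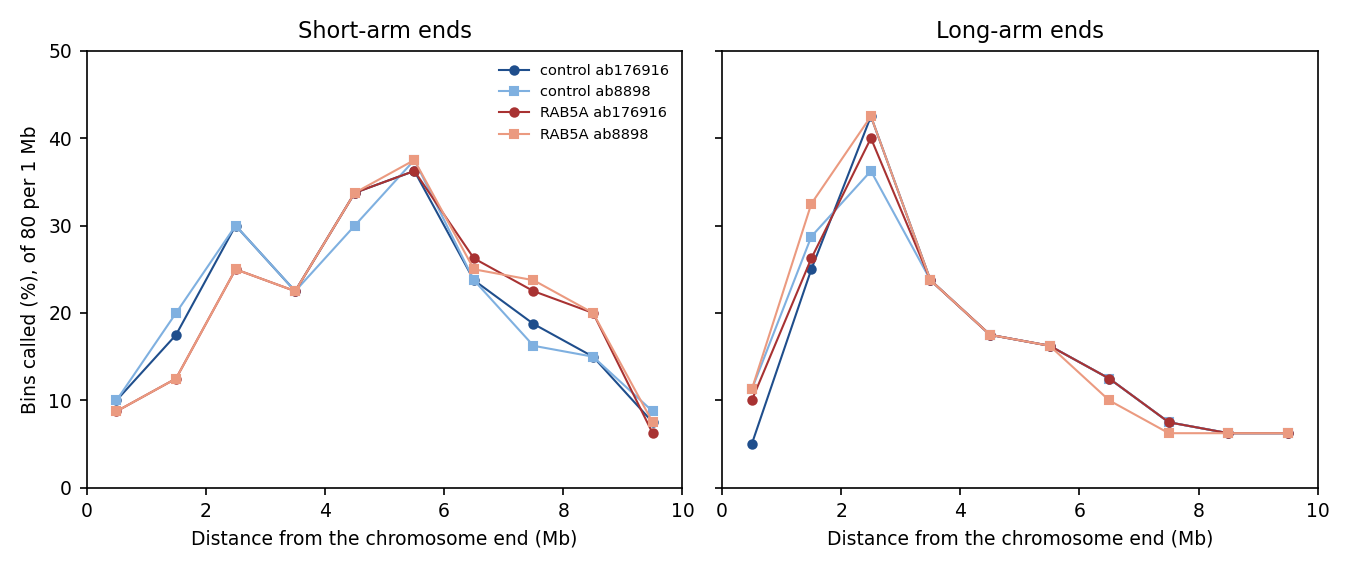
Share of 200 kb bins called (%) in windows of 1 Mb by distance from the chromosome end (Mb), for short-arm ends (left) and long-arm ends (right), 1 line per library and 80 bins per window. The short-arm lines peak between 5 and 6 Mb and the long-arm lines between 2 and 3 Mb.

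The calls in the ends formed 12 stretches, and each library held 12 domains there. Their median length was 3, 2.3, 2.8 and 2.9 Mb. The median over all autosomal domains of the same lists was 2.2, 2.3, 2.2 and 2.4 Mb. Of the 188 bins (37.6 Mb) called in any library, 156 (31.2 Mb, 83.0%) were called in all 4. That is 19.5% of the ends, against 9.01% of the bins of the genome and 6.18% of autosomal bins. The other 32 bins were called in 1 to 3 libraries.

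Many limits of the stretches were fixed to the bin. Of 20 limits present in all 4 libraries, 2 were set by the start of chromosome 8 and by the 10 Mb limit on chromosome 17. Of the other 18, 10 fell at the same bin edge in each library, and every shift among the rest was 1 bin, 0.2 Mb. The number of limits that differed was 5 and 4 between conditions with the same antibody (ab176916 and ab8898) and 5 and 4 between antibodies within a condition (control and RAB5A). These counts leave out the 4 limits of the domains on chromosomes 5 and 10 that were absent in both libraries of 1 condition. The one limit that moved alike in both libraries of a condition was the tip-side limit on chromosome 3, at 0.4 Mb in both controls and 0.6 Mb in both RAB5A libraries.

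The stretches shared by the 4 libraries held between 1 and 12 protein-coding starts each. On chromosome 2 the domain from 3.8 to 8.8 Mb had the same limits in all 4 libraries and held 5 protein-coding starts. They were SOX11, a transcription factor of neural progenitors, RNF144A, an E3 ubiquitin ligase, ID2, an inhibitor of basic helix-loop-helix factors, and the neighbours RSAD2 and CMPK2. RSAD2 (viperin) and CMPK2 (a mitochondrial nucleotide kinase) are induced by interferon, and both lay whole inside the domain in all 4 libraries. Tipward, from 1.8 to 3.2 Mb (3.4 Mb in control ab8898), lay MYT1L, a neuronal transcription factor, with 98.0% of its body covered. Between these 2 domains an uncalled gap of 0.6 Mb in 3 libraries and 0.4 Mb in control ab8898 held a run of genes that includes RNASEH1, which removes RNA from RNA-DNA hybrids, ADI1, a methionine salvage enzyme, RPS7, a ribosomal protein, and COLEC11, a collectin. The starts of EIPR1 and TRAPPC12, both factors of vesicle trafficking, were called in control ab8898 alone, with 100% and 19.3% of their bodies covered there and 5.86% and 0% in the other 3 libraries.

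On chromosome 3 the stretch to 4.4 Mb held 7 protein-coding starts, all of them called in all 4 libraries. CNTN6 and CNTN4 encode contactins, adhesion molecules of neurons, and IL5RA the interleukin-5 receptor alpha chain. TRNT1 adds the CCA end to transfer RNAs, CRBN is the cereblon subunit of an E3 ubiquitin ligase, LRRN1 is a neuronal membrane protein and SETMAR a histone methyltransferase fused to a transposase. CHL1, the adhesion molecule at the tip side, started outside the stretch, and 4.43% of its body was covered in both controls and 0% in both RAB5A libraries. SUMF1, which activates sulfatases, started just beyond the inner limit with 91.2% of its body covered in each library.

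On chromosome 5 the stretch from 2.0 to 6.6 Mb held 6 protein-coding starts in all 4 libraries. IRX2 and IRX1 are homeobox factors of the iroquois family, ADAMTS16 is a secreted metalloprotease, ICE1 a subunit of the little elongation complex, MED10 a subunit of Mediator and UBE2QL1 a ubiquitin-conjugating protein. Control ab8898 left out 3.8 to 4.6 Mb, an interval with 0 protein-coding starts, and so gave 2 domains there where the other 3 libraries gave 1. On chromosome 1, from 3.8 to 5.8 Mb, lay DFFB, the caspase-activated DNase, C1orf174 and AJAP1, a protein of adherens junctions. The next bin, with the start of NPHP4, a ciliary protein, and of KCNAB2, a potassium channel subunit, was called with ab8898 in both conditions and with ab176916 in neither. It was the only bin of the ends that divided the libraries by antibody.

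On chromosome 8 the first 6.2 Mb (6.4 Mb in RAB5A ab176916) was called but for 1 bin at 1.8 to 2.0 Mb, which was called in control ab8898 alone. That bin held the starts of ARHGEF10 and KBTBD11. The stretch held 12 protein-coding starts, beginning with OR4F21, ZNF596, FBXO25 and TDRP and ending with ARHGEF10, KBTBD11, MYOM2, which encodes myomesin 2, and CSMD1, a large membrane protein whose 2060 kb body was covered whole in all 4 libraries. Chromosome 9 had 1 protein-coding start from 7.6 or 7.8 Mb onwards, that of DMAC1, an assembly factor of respiratory complex I. The receptor phosphatase PTPRD, which starts beyond 10 Mb, reached into the stretch with 73.3%, 73.3%, 64.6% and 73.3% of its body covered.

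On chromosome 16 the domain from 5.0 to 8.6 Mb had the same limits in all 4 libraries. RBFOX1, a neuronal splicing factor of 2474 kb, filled most of it, with NAGPA and ALG1, enzymes of glycoprotein processing, C16orf89, the methyltransferase EEF2KMT and TMEM114 at its margins. On chromosome 17 the edge held GSG1L2, GLP2R, the receptor for glucagon-like peptide 2, and RCVRN, the photoreceptor protein recoverin, in all 4 libraries, and USP43 and DHRS7C in control ab8898 alone. On chromosome 18 the stretch from 4.0 to 7.4 Mb (7.6 Mb in control ab176916) held 10 starts in the union, from DLGAP1, a scaffold of synapses, AKAIN1, ZBTB14 and EPB41L3 to ARHGAP28, LAMA1, the laminin alpha 1 chain, LRRC30 and PTPRM. PTPRM, a receptor phosphatase, was called at its start in control ab176916 alone, with 3.95% of its body covered.

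The ends held 69 protein-coding genes with a called start in at least 1 library, of 1599 starting there, and the number did not separate the conditions. Called starts numbered 54, 64, 56 and 58, or 3.38%, 4.00%, 3.50% and 3.63% of the genes of the ends. Over all 20033 protein-coding genes, those of chromosomes X and Y included, the shares were 7.2%, 7.57%, 7.21% and 8.15%, above those of the ends. In the rest of the same 16 chromosomes the shares were 2.46%, 2.58%, 2.48% and 2.60% of 13829 genes, below those of the ends in each library. The controls averaged 59 ± 7.07 genes and the RAB5A libraries 57 ± 1.41 (SD, n = 2 per condition), a difference of -2 within the spread of the controls (exact permutation test, p = 1). With ab176916 the difference was 2 and with ab8898 it was -6, and it was 2 when domains closer than 400 kb were merged. The start of 52 genes was called in all 4 libraries and that of 17 in 1 to 3 libraries, and 47 genes were covered over their whole body in all 4.

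Of the 17 genes that varied, 5 divided the libraries by condition (ADARB2, ADCY2, CFAP90, MTRR and FASTKD3), 2 by antibody (NPHP4 and KCNAB2) and 10 were called in 1 library, of which control ab8898 gave 9. That library had the highest count, 64, and the other control the lowest, 54.

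The gene families examined are read against the mean of 3.63% of all protein-coding genes of the ends that started in called bins, so few calls are the usual state of a family there. Of 25 zinc finger genes, ZNF596 was called in all 4 libraries and the other 24 in none, among them ZNF595, ZNF718, ZNF732 and ZNF141 near the tip of chromosome 4. Of 84 olfactory receptor genes, OR4F21 was called in all 4 libraries and the rest in none, including the large cluster on chromosome 11. None of the 28 defensins, 10 globins, 8 TRIM genes and 6 ribosomal protein genes was called in any library. The nearest were RPS7, 0.175 Mb from a bin called in some library, RPL22, 0.209 Mb, and DEFB1, 0.478 Mb. Of the 3 contactin and L1 adhesion genes CNTN6 and CNTN4 were called in all 4 libraries, and of the 3 iroquois genes IRX2 and IRX1 were, while CHL1 and IRX4 were called in none. The set of RNA editing genes had 1 member in the ends, ADARB2, and of the adenylyl cyclases ADCY2 was called in RAB5A libraries and ADCY9 in none.

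The study followed interferon signalling and sensing of DNA in the cytoplasm. A list of 15 genes of that kind in the ends, chosen by symbol, was therefore examined. None of the listed genes started in a called bin of any library. That count is close to what the share of 3.63% over all genes of the ends gives for a list of this size. ISG15, a ubiquitin-like protein induced by interferon, lay 2.80 Mb from the nearest called bin. On chromosome 9 the kinase JAK2 lay 2.62 Mb away, and CD274 (PD-L1) and PDCD1LG2 (PD-L2), ligands of an inhibitory receptor on T cells, 2.15 and 2.09 Mb away. The other members were the transcription factors IRF4 and IRF7, the antiviral proteins IFITM1, IFITM2 and IFITM3 with IFITM5 and IFITM10, the receptor SIGIRR and the restriction factors TRIM5, TRIM21 and TRIM22, all on ends without a call. RSAD2 and CMPK2, described above, started in bins called in all 4 libraries but were not on that list. The count for the list thus depends on which genes were put on it. RSAD2 and CMPK2 are named as interferon-induced after their values were seen.

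Genes of 500 kb or longer started in called bins more often than the protein-coding genes of the ends as a whole. Of 20 such genes starting in the ends, 8, 7, 6 and 6 were called, and 6 were called in all 4 libraries (MYT1L, CNTN4, DLGAP2, CSMD1, RBFOX1 and DLGAP1). This is a mean of 33.8% against 3.63% of all protein-coding genes of the ends. ADARB2 was called in both controls and PTPRM in control ab176916. Long genes whose start was called in no library included CAMTA1, SUMF1, GRM7 and SORCS2 at the start of the list by position. At its end were GLIS3, ERC1, CACNA1C and PLCB1. A call at the start and cover of the body differed, since DLGAP1 had 47.5% of its body covered in each library and SUMF1 91.2%.

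Called bins of the ends were poorer in genes and in GC than the uncalled bins of the ends, pooled over the chromosomes. Bins called in all 4 libraries had 1.67 protein-coding starts per Mb, and bins called in none had 12.5. No protein-coding gene started in 75.6% of the former and 29.1% of the latter. By overlap with a gene of 500 kb or longer, the shares were 34.6% and 10.1%. Starts of long noncoding RNA genes differed less, at 6.67 and 10.6 per Mb. The median GC content was 40.9% (interquartile range 38.4% to 43.8%) in bins called in all 4 libraries and 44.3% (40.7% to 49.2%) in bins called in none. Single stretches did not all follow this order. GC content was above that of the whole end at 1.8 to 3.4 Mb of chromosome 2 (45.5% against 43.0%). It was also above it on chromosome 10 (43.0% against 42.1%), and below it in the other stretches. In the rest of the same chromosomes, bins called in all 4 libraries were also poorer in protein-coding starts than bins called in none. They had 3.53 against 6.34 starts per Mb, and 70.9% against 48.7% held no start. Overlap with a gene of 500 kb or longer was 19.8% against 11.2%. The order of GC content there was the other way, at 41.1% in bins called in all 4 libraries and 39.5% in bins called in none. The bins called in all 4 thus had nearly the same median GC content in both regions, while the uncalled bins of the ends were richer in GC than those elsewhere. Uncalled bins of the 6 ends without a domain (44.5% GC and 12.1 protein-coding starts per Mb) resembled uncalled bins of the 10 ends with one (43.8% and 12.9). These are values of neighbouring bins, which are not independent, and they were not tested.

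**Figure D4:**
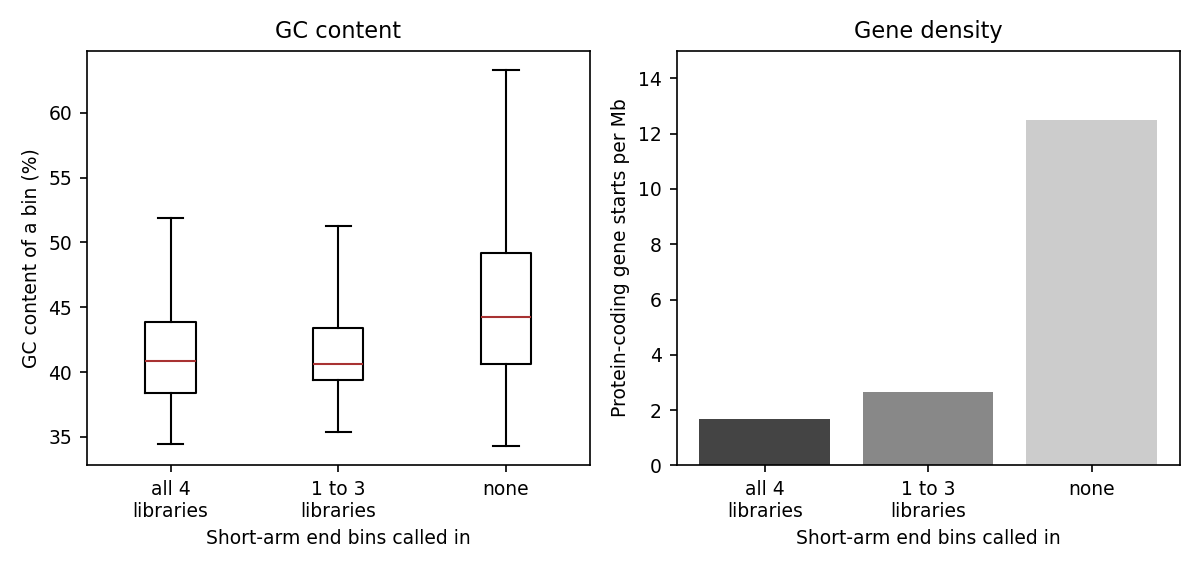
Left, GC content (%) of short-arm end bins called in all 4 libraries (156 bins), in 1 to 3 (32) and in none (612), with median, quartiles and full range; right, protein-coding starts per Mb in the same bins. The bins called in none have the highest median GC content, 44.3%, and the highest density, 12.5 starts per Mb.

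The comparison of control with RAB5A came down to a few stretches. In the ends, 9 bins (1.8 Mb, 1.13%) were called in both controls and in neither RAB5A library, against 0.0712% of the bins of the genome, which is 11 bins in all. Another 10 bins (2 Mb, 1.25%) were called with both antibodies in RAB5A cells and with neither in control cells, against 0.129%, or 20 bins. Dividing the libraries by antibody gave 0 bins for ab176916 and 1 bin for ab8898 in the ends, against 0.0906% and 0.285%. The rest of the same chromosomes held 0 control and 8 RAB5A bins of this kind, and 12 and 9 bins by antibody, in 11184 bins. The long-arm ends held 0 and 0 by condition and 0 and 6 by antibody.

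Of the 9 control bins, 8 formed 1 domain on chromosome 10 and the other was the edge on chromosome 3. The domain ran from 1.2 to 2.8 Mb with ab176916 and from 1.0 to 2.8 Mb with ab8898, and covered 96.0% and 100% of ADARB2 and 0% in both RAB5A libraries. The bin added with ab8898 held IDI1 and IDI2, isomerases of isoprenoid synthesis, and WDR37. The score of the chromosome 10 domain ranked 6 from the lowest of 78 domains and 9 from the lowest of 76. By score per bin it ranked 34 and 32 from the lowest of the same lists. The 10 RAB5A bins were 1 domain on chromosome 5, from 6.8 to 8.8 Mb with both antibodies, which covered ADCY2, CFAP90, MTRR and FASTKD3 whole. It ranked 3 from the lowest of 79 and lowest of 76, and by score per bin 16 and 13 from the lowest. The domain lay 1 bin from the stretch that all 4 libraries shared. That uncalled bin held the starts of NSUN2, an RNA methyltransferase, SRD5A1, a steroid reductase, and TENT4A, a poly(A) polymerase. With domains scoring below the lower quartile of their list left out, neither of these domains was present. The 1 control bin then left was the edge on chromosome 3, and the 10 bins then called in RAB5A alone were other bins, on chromosome 9 from 7.8 to 9.8 Mb, which all 4 libraries called when no domain was left out.

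Within the ends, libraries of the same condition shared more of their calls than did libraries made with one antibody. The Jaccard index, the bins called in both libraries over those called in either, was 0.938 between the controls and 0.977 between the RAB5A libraries. It was 0.874 between conditions with ab176916 and 0.849 with ab8898, and 0.885 and 0.839 for the pairs sharing neither. The same-antibody mean (0.862 ± 0.0176, SD, 2 pairs) lay below the same-condition mean (0.957 ± 0.0277, SD, 2 pairs), and the pairs of the 2 kinds did not overlap. In the rest of the same chromosomes the order was not seen, with 0.891 and 0.903 for the same antibody and 0.859 and 0.889 for the same condition. Without chromosomes 5 and 10, a setting chosen after the values were seen, the difference between the means went from -0.0955 to -9.27e-05, and there were 1 control bin and 0 RAB5A bins. No read counts accompany the lists, so whether the 2 domains lay just above the calling threshold in one condition and just below it in the other was not tested.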

How the data were processed

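H3K9me3 ChIP-seq of 4 libraries was analysed, and the 2 input libraries were not analysed here. The authors used Trimmomatic (v0.39) for trimming, BWA (v0.7.17) for alignment to hg38, Picard (v2.22) for duplicates and SAMtools (v1.9) to drop mapping qualities under 1, and called domains per library with EDD (bins of 200 kb, gap penalty 25, informative fraction 0.98, unalignable regions excluded). The deposited lists give the position of each domain and a score of the authors with no stated unit, used here to rank and filter domains within a list. All limits fall on multiples of 200 kb. The lists carry no read counts, so the depth of each library and its counting error are unknown, and signal below the threshold is not visible.

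Bins were marked in Python 3.11.15 with pandas 2.3.3, and the step was tested on simulated domains. Protein-coding genes came from GENCODE 44 by the position of the start, and promoters from RefSeq, matched by symbol for 1116 of 1599 genes of the ends. For genes called in all 4 libraries 34 of 52 matched, too few for a comparison of promoter composition, which is void. Conditions were compared by exact permutation over the 6 labellings of 4 libraries, and regions by exact sign flips over 4 libraries. Every stretch is described, with all its protein-coding starts up to 8 and otherwise the first and last 4. The name of 1 gene and the terminal sequences are not reported here. Gene sets give up to 8 members inside and outside calls, and all of the interferon set. The regions, sets and tests were chosen with earlier results of these data known.

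Replicate numbers stand for the antibody, per the labels. Between same-antibody libraries, Pearson's r of the deviations from the group means was 0.0016 over 188 called bins of the ends, a description over bins that share libraries, and 0.316 over 1736 bins of the genome. Alternatives were a limit of 5 Mb, domains closer than 400 kb merged, scores from the lower quartile up, a length of at least 1 Mb, bins over 50% unsequenced left out, bins at least 50% covered, other comparison regions, gene bodies in place of starts, the pairing by antibody, and each antibody left out.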

Additional observations from a re-analysis of the deposited data

Results flagged for a closer look

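A few differences between RAB5A and control had opposite signs with the 2 antibodies, each resting on 1 library per condition and antibody, and the difference between antibodies was not tested. The called length of the short-arm ends changed by -0.2 Mb with ab176916 and by 0.4 Mb when ab8898 was used. The number of protein-coding genes starting in called bins changed by 2 with ab176916 and -6 with ab8898. On chromosome 8 the called length changed by 0.2 Mb with ab176916 and -0.2 Mb with ab8898, 1 bin each way. On chromosome 9 it changed by -0.4 Mb with ab176916 and 0.2 Mb with ab8898, at the limits of the stretch that holds DMAC1.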

How the results depend on the processing

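The excess of the short-arm ends over the comparison region was positive under all its alternatives, from 4.78 points against the long-arm ends to 17.1 points without replicate 1. The long-arm comparison was made over 10 Mb alone and not within the first 5 Mb. The difference in called length between RAB5A and control, 0.1 Mb, was -1.7 Mb within the first 5 Mb and -0.6 Mb without chromosomes 5 and 10, and with either replicate left out it lay between -0.2 and 0.4 Mb. The gene difference, -2, was 2 with domains closer than 400 kb merged and with either replicate left out lay between -6 and 2. With the pairing by antibody as a block the differences were 0.1 Mb and -2 genes (exact sign-flip permutation over 2 pairs, p = 1 each, where the smallest possible is 0.5). Bins of both controls alone, 9, were 1 with low-scoring domains left out and 1 without chromosomes 5 and 10. Bins of both RAB5A libraries alone, 10, were 10 other bins, on chromosome 9, with low-scoring domains left out, and 0 within 5 Mb and 0 without chromosomes 5 and 10. Bins called in all 4 libraries, 156, were 78 within 5 Mb, which holds fewer bins. The Jaccard difference, -0.0955, was -0.0595 with low-scoring domains left out and -9.27e-05 without chromosomes 5 and 10. The cause was not tested in the other cases. Of 62 values under alternatives, 50 kept their direction or stayed near the original. Counts of bins were compared by size alone, so the 10 other bins on chromosome 9 are among the 50. Some of the 50 could not move. No domain in the ends was shorter than 1.4 Mb, and all limits fall on bin edges. No bin of the ends was over 50% unsequenced, and the pairing by antibody alters the p alone. The tally is therefore not a measure of stability. Leaving out chromosomes 5 and 10 was chosen after seeing the data. Depth is unknown, so a call lost in 1 library cannot be told apart from lower depth, and no p below 0.33 was possible between conditions.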
